A study of Canis lupus familiaris with 16 samples.

Results

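Keratin genes were chosen by name: 59 of the 41818 genes in the count table carry a symbol made of KRT, a number and at most a single letter. Keratins are the proteins of the intermediate filaments of epithelial cells, and each filament pairs a type I with a type II keratin. Which pair a cell makes depends on the kind of epithelium and on how far the cell has matured, so that basal epidermis, upper epidermis, hair root sheath, hair shaft and simple epithelia such as glands each have their own set. Sarcoma cells are of mesenchymal origin, and keratin counts in a section of a skin or subcutaneous tumor can therefore come from overlying skin, from glands or from the tumor itself. RNA from a whole section does not tell these sources apart, and fewer cells of a type cannot be told apart from less RNA per cell.

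The RNA came from formalin-fixed, paraffin-embedded tumors of dogs, and reads were counted per gene. By the label for molecular identity, the 16 tumors were 4 fibrosarcomas (FS, ages 9 to 13 years), 6 peripheral nerve sheath tumors (PNST, 8 to 13 years) and 6 perivascular wall tumors (PWT, 2 to 14 years). The labels give no treatment, and no normal skin was used here. The molecular identity was set in the study partly from expression in these same tumors, and it differs from the histological diagnosis for S1-10, a PWT by histology, and for S2-08, an FS by histology. S1-04 and S1-05 have the same labels and may come from a single dog. The 9 tumors whose names begin with S1 were sequenced in 3 runs each, and the 7 that begin with S2 in 1 run. FS and PNST were mostly S1 tumors (3 of 4 and 5 of 6), and PWT mostly S2 tumors (5 of 6). Between 507728 (S1-12) and 4311876 (S1-03) counts fell on genes, and levels are given as CPM, the count scaled to a common total of these counts. A count of 0 allows a level of up to 0.696 CPM in S1-03 and 5.91 CPM in S1-12, counting 3 reads as the limit. The collagen genes *COL1A1*, *COL1A2* and *COL3A1*, which mark mesenchymal cells, had at least 10 counts in all 16 tumors, as did *VIM* and *PDGFRB*.

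Of the 59 keratin genes, 45 reached at least 10 counts in at least 1 tumor, 36 did so in at least 4 tumors, 14 stayed below 10 in every tumor, and *KRT88* and *KRT127* had no count in any tumor. The tumors fell into separate clusters. In S1-02 and S1-12 (FS), S1-04 and S1-05 (PNST) and S2-03 (PWT), between 20 and 42 keratin genes had at least 10 counts, and the keratin genes together took 1168 to 2494 CPM. In the other 11 tumors, 2 to 7 keratin genes had at least 10 counts, and the sum was 32.7 to 503 CPM. Because S1-12 has the fewest counts, its 20 genes are a lower number at a shallower depth, and 34 genes in place of 45 were found in any tumor when all libraries were thinned to its total. *KRT5* marked the same 5 tumors at every setting tried (at least 10 counts, at least 3 counts, at least 5 CPM, or thinned counts). These 5 tumors are set out below by their *KRT5* counts only to describe them, and no test was made between them and the rest.

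**Figure D1:**
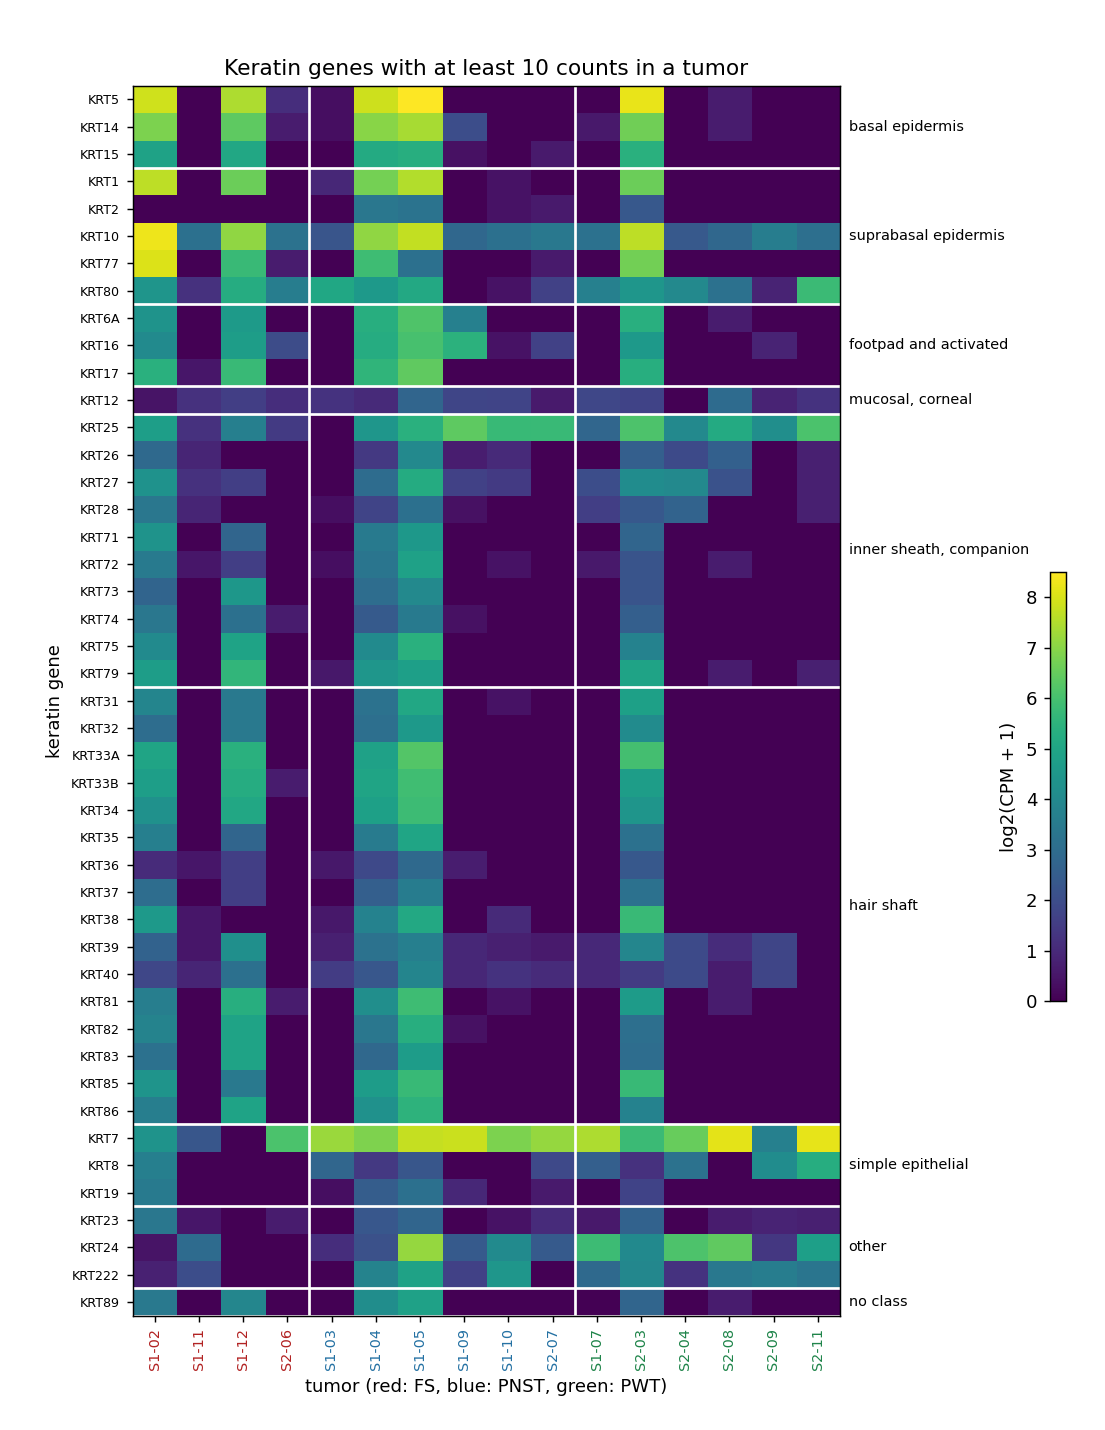
Level of the 45 keratin genes that reached at least 10 counts in a tumor, as log2(CPM + 1), for each of the 16 tumors, with genes ordered by class and tumors by molecular identity. Most rows are bright in S1-02, S1-12, S1-04, S1-05 and S2-03 and dark elsewhere, while *KRT7*, *KRT25*, *KRT24* and *KRT80* have counts in many other tumors.

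The basal class holds *KRT5* and *KRT14*, the type II and type I partners of dividing basal keratinocytes, and *KRT15*, a keratin of basal and hair bulge cells. *KRT5* stood at 236 CPM in S1-02, 175 in S1-12, 230 in S1-04, 361 in S1-05 and 299 in S2-03. In the other 11 tumors it had 0 to 2 counts, at most 1.16 CPM. *KRT14* stood at 113 CPM in S1-02, 82.7 in S1-12, 126 in S1-04, 168 in S1-05 and 98.9 in S2-03, and at most 3.05 CPM elsewhere. *KRT15* ranged from 29.1 to 41.2 CPM in the 5 tumors, with at most 1 count in any other. The 5 tumors, which were set apart by *KRT5* itself, held 99.5% of all basal class counts. Within them, *KRT5* had 1.83 to 2.15 counts per *KRT14* count in S1-02, S1-04, S1-05 and S1-12, and 3.02 in S2-03 (95% interval from 2.59 to 3.53, counting error only). The intervals of the other 4 overlapped one another, and that of S2-03 overlapped only the wide one of S1-12 (1.45 to 3.14).

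The suprabasal class holds the keratins of cells that have left the basal layer. *KRT1* and *KRT10* are partners there, *KRT77* is found in sweat ducts and upper epidermis, *KRT2* in the uppermost living layers, and *KRT80* in many epithelia. *KRT1* stood at 201 CPM in S1-02, 94.5 in S1-12, 106 in S1-04, 180.5 in S1-05 and 94.9 in S2-03, and at most 0.928 CPM elsewhere. *KRT10* stood at 312 CPM in S1-02, 134 in S1-12, 136 in S1-04, 212 in S1-05 and 199 in S2-03. Unlike *KRT1*, it also had counts in each of the other 11 tumors, at 3.71 to 11.2 CPM. *KRT77* varied widely among the 5 tumors: it stood at 262 CPM in S1-02, 53.2 in S1-12, 56.7 in S1-04, 102 in S2-03 and only 7.76 in S1-05. S1-05 thus had the highest *KRT5* and the lowest *KRT77* of the 5 tumors, with 0.0215 *KRT77* counts per *KRT5* count, against 1.11 in S1-02. *KRT2*, named after its values were seen, had 28 counts in S1-04, 13 in S1-05 and 9 in S2-03 but 0 in S1-02, where *KRT1* and *KRT10* were highest. *KRT80* did not follow this pattern, with at least 10 counts in 11 tumors and its highest level, 54.4 CPM, in S2-11. The 5 tumors held 91.4% of the suprabasal class counts.

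The third epidermal group holds *KRT6A*, *KRT16* and *KRT17*, which are made in hair follicles and in wounded or rapidly growing epidermis, and *KRT9*, a keratin of footpad skin. *KRT17* stood at 41.0 CPM in S1-02, 53.2 in S1-12, 45.8 in S1-04, 85.4 in S1-05 and 38.9 in S2-03, with at most 1 count in any other tumor. *KRT16* ranged from 15.8 to 64.7 CPM and *KRT6A* from 19.4 to 71.2 CPM in these 5 tumors. *KRT9* had at most 2 counts in any tumor, including S1-12 from the metacarpus and S2-07 from between the digits. The 5 tumors held 85.9% of the counts of this group, and a single tumor broke the pattern. S1-09, a PNST, had 142 counts of *KRT16* (43.3 CPM), 39 of *KRT6A* (11.9 CPM) and 10 of *KRT14* (3.05 CPM), but 0 counts of *KRT5*, *KRT17*, *KRT1* and *KRT77*. The *KRT16* counts were spread evenly over its 3 runs, at 44, 54 and 44. Among epidermal genes that are not keratins, *SERPINB5* (77.4 CPM) and *PKP3* (27.1 CPM) were higher in S1-09 than in any other tumor, and *SBSN* had 60 counts there (18.3 CPM). *CASP14*, *ZNF750* and *GRHL3* had 168, 70 and 64 counts in S1-09, but had counts in many other tumors as well. In contrast, *DSP*, *DSG1*, *DSC1*, *FLG*, *KRTDAP* and *IVL* had 0 counts in S1-09, and *TP63* had 2. The whole list of 42 epidermal genes, described below, summed to 253 CPM there, against 1273 to 1851 CPM in the 5 tumors. This was the highest sum among the tumors without *KRT5*. The genes of this comparison were named after their values were seen.

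Most hair follicle keratins were found in the same 5 tumors as the epidermal ones. The inner root sheath and companion layer class holds *KRT25* to *KRT28* and *KRT71* to *KRT74* of the inner sheath, *KRT75* of the companion layer, and *KRT79* of the duct above the sebaceous gland. *KRT79* stood at 25.5 CPM in S1-02, 47.3 in S1-12, 20.9 in S1-04, 26.5 in S1-05 and 29.5 in S2-03, with at most 2 counts elsewhere. *KRT75* ranged from 12.5 to 41.4 CPM in the 5 tumors and had no count in the other 11. *KRT71*, a type II keratin of the inner sheath, stood at 19.4 CPM in S1-02, 10.3 in S1-04, 22.0 in S1-05, 5.91 in S1-12 and 5.82 in S2-03, and also had no count elsewhere. All 10 members had at least 10 counts in S1-02 and in S1-05, 8 did so in S1-04, 7 in S2-03 and 3 in S1-12. The 5 tumors held only 64.7% of the counts of this class. Outside the 5 tumors, *KRT27* had 11 counts in S2-04 (15.2 CPM), above its 6.96 CPM in S1-04, and *KRT25* had counts in many tumors and is described with the genes of that kind.

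The hair shaft class, the hard keratins of the hair cortex and cuticle, has 17 members in the table. Of these, 16 reached at least 10 counts in some tumor, always in one of the 5, which held 97.7% of the class counts. *KRT33A* stood at 30.2 CPM in S1-02, 41.4 in S1-12, 27.8 in S1-04, 73.1 in S1-05 and 61.8 in S2-03. It had no count in the other 11 tumors, and neither had *KRT34*, *KRT85* or *KRT86*. *KRT85* stood at 20.1 CPM in S1-02, 9.85 in S1-12, 25.2 in S1-04, 51.8 in S1-05 and 51.5 in S2-03. *KRT33B* ranged from 25.5 to 58.2 CPM and *KRT34* from 18.7 to 55.6 CPM in the 5 tumors. *KRT36* reached 10 counts only in S1-05 (6.47 CPM), with 9 in S2-03 and 8 in S1-04. *KRT84*, the remaining member, had at most 5 counts. Hair keratins such as *KRT81*, *KRT83* and *KRT86*, or *KRT33A* and *KRT33B*, are close copies of one another. How their reads were split depends on the alignment, and reads with more than 1 alignment, which made up 9.11% to 31.6% of the listed reads, are not in the counts of any gene. Hair keratins are cross-linked in the shaft by keratin-associated proteins. Of their genes, 10 (KRTAP) are in the table, and they had 1301 counts in the 5 tumors and 9 in the other 11. *KRTAP7-1*, for example, had 42 counts in S1-02, 20 in S1-12, 82 in S1-04, 82 in S1-05 and 111 in S2-03, and none elsewhere.

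**Figure D2:**
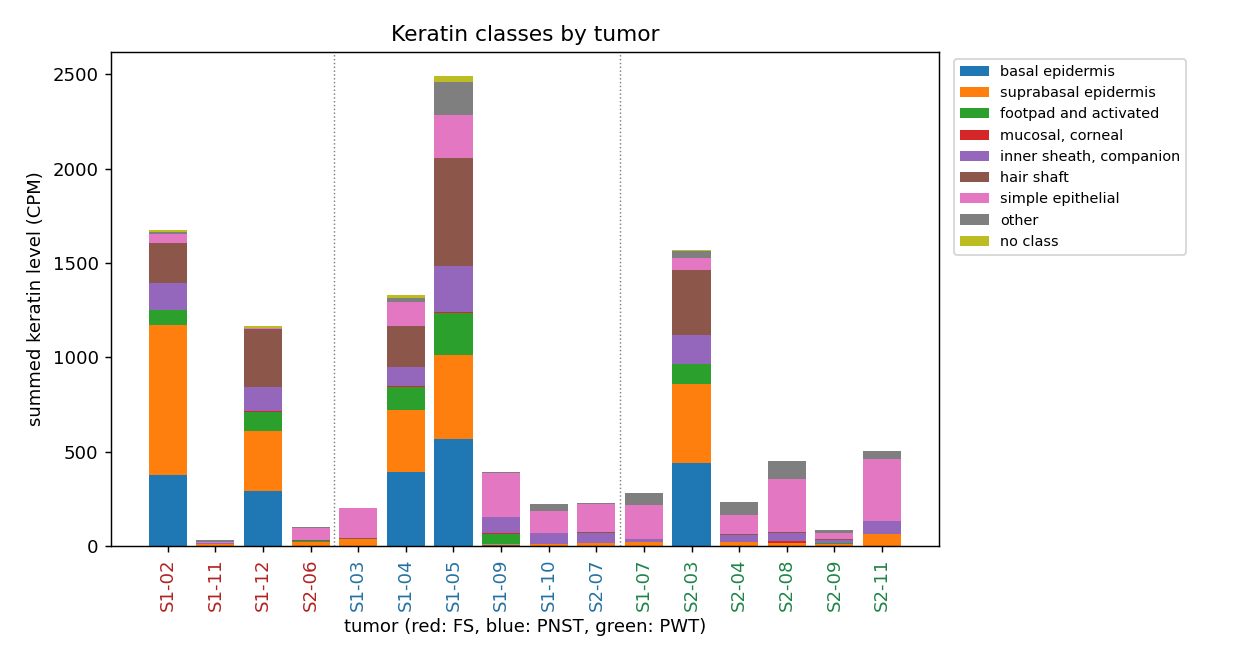
Summed level of each keratin class (CPM, stacked bars) in each tumor, with tumors ordered by molecular identity. The 5 tall bars, at 1168 to 2494 CPM, hold basal, suprabasal and hair keratins, while simple epithelial keratin makes up 11.8% (S1-11) to 77.3% (S1-03) of the keratin counts in the 11 lower bars.

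The mix of skin keratins was not the same in the 5 tumors, as the plot of class sums shows. The basal sum lay between 292 CPM (S1-12) and 568 CPM (S1-05). The suprabasal sum was 796 CPM in S1-02, against 319 to 446 CPM in the other 4, and made up 47.5% of the keratin counts of S1-02, against 17.9% to 27.3%. The hair shaft sum was 569 CPM in S1-05, 344 in S2-03, 305 in S1-12, 222 in S1-04 and 212 in S1-02. Relative to basal counts, S1-02 had 2.11 suprabasal counts per basal count (95% interval 1.96 to 2.27) and 0.561 hair shaft counts (0.506 to 0.621). S1-05 had 0.785 suprabasal (0.709 to 0.868) and 1.00 hair shaft counts per basal count (0.911 to 1.10). These intervals do not overlap between S1-02 and S1-05, so the ratios differed between these libraries by more than counting error. S1-12, from the metacarpus, was like S1-05 in its hair shaft ratio, at 1.05 (0.831 to 1.32), but had *KRT38* at 0 counts, where the other 4 tumors had 12.6 to 52.8 CPM. A count of 0 allows up to 5.91 CPM in S1-12.

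S1-04 and S1-05, with the same labels, carried the same skin keratins in different amounts. S1-05 was higher in the basal sum (568 against 392 CPM), the hair shaft sum (569 against 222 CPM) and the inner sheath and companion sum (243 against 99.1 CPM), and the counting intervals of the pair did not overlap for any of these. The direction was the opposite for *KRT77*, at 7.76 CPM in S1-05 (95% interval 4.01 to 13.6) and 56.7 in S1-04 (48.5 to 65.9). The largest gap was in *KRT24*, with 218 counts in S1-05 (141 CPM) and 10 in S1-04 (3.32 CPM). Its counts in the 3 runs were 81, 63 and 74 in S1-05 and 1, 7 and 2 in S1-04, so the gap lay between the libraries and not between runs. Over the keratin genes with at least 10 counts in a tumor with repeated runs, the chi-square p between the runs of a tumor was under 0.05 in 9 of 166 gene and tumor pairs (5.42%), and the mean chi-square was 1.14 per degree of freedom.

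Genes of skin cells that are not keratins were measured alongside. The list of 42 epidermal genes, 39 of them in the table, summed to 1273 to 1851 CPM in the 5 tumors and to 96.4 to 253 CPM in the other 11. *DSP*, the desmosome protein that anchors keratin filaments, stood at 504 CPM in S1-02, 349 in S1-12, 328 in S1-04, 441 in S1-05 and 338 in S2-03. It was next highest in S1-11 (77.0 CPM), an FS with 0 counts of *KRT5*. *FLG*, which aggregates keratin filaments in the outer epidermis, had 65.4 to 127 CPM in the 5 tumors and at most 1 count elsewhere. *PERP*, a desmosome gene, ranged from 79.6 to 208 CPM in the 5 tumors and reached 39.5 CPM in S2-06. *CASP14*, a protease of the cornified layer, did not follow the pattern: it had at least 10 counts in all 16 tumors and was highest in S2-06 (101 CPM). In the hair follicle list, 16 genes summed to 154 to 298 CPM in the 5 tumors and to 7.42 to 43.4 CPM in the others. *TCHH*, which hardens the inner root sheath, ranged from 72.9 to 158 CPM against at most 2.13 CPM, whereas *LGR5*, a stem cell gene of the follicle and of other tissues, was highest in S2-09 (31.9 CPM).

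Summed lists for other cell types of skin were less far apart between the 5 tumors and the others, and single members differed. The 17 genes of simple or glandular epithelium summed to 103 to 150 CPM in the 5 tumors and to 17.2 to 149 CPM in the others. The upper end was S2-06, an FS with 87.1 CPM of *CDH1*, the epithelial cadherin, and 34.8 CPM of the epithelial splicing factor *ESRP1*, but 2 counts of *KRT5*. In the same list, *EPCAM* had 2 to 25 counts in the 5 tumors and at most 1 elsewhere, whereas *CLDN7* reached 10 counts only in S1-07. The 6 sebaceous genes, led by *FAR2*, summed to 15.8 to 30.6 CPM against 2.26 to 20.3 CPM. *FAR2* had at least 10 counts in 10 tumors. *AWAT1* had 3 to 22 counts in the 5 tumors and at most 2 elsewhere, and *ELOVL3* 2 to 28 and at most 1. *AWAT2* and *MOGAT1* had at most 5 counts in any tumor, without such a split. The 8 melanocyte genes summed to 23.3 to 88.8 CPM against 7.58 to 22.6 CPM, ranges that did not overlap. *PMEL*, the highest of them on average, had at least 10 counts in 14 tumors, at 16.9 to 35.5 CPM in the 5 tumors and 5.51 to 15.5 CPM in the others. *OCA2*, a melanosome gene, stood at 65.4 CPM in S1-02 and at most 9.76 CPM in any other tumor. *TYRP1*, a pigment enzyme gene, had 10 or more counts only in S1-04 and S1-05. The 5 mesenchymal genes summed to 7306 to 37051 CPM in the 5 tumors and to 9803 to 77132 CPM in the others, and these ranges overlap.

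The simple epithelial class behaved differently from the skin keratins, and the 5 tumors held 21.6% of its counts. Most of its counts were of *KRT7*, a type II keratin of glands and ducts, which had at least 10 counts in 14 tumors. In FS it stood at 19.4 CPM in S1-02, 3.87 in S1-11, 0 in S1-12 and 67.4 in S2-06. In PNST the lowest level was 112 CPM (S1-10), the median 145 and the highest 227 (S1-09). In PWT the lowest was 12.0 CPM (S2-09), the median 132 and the highest 290 (S2-11). All FS lay below all PNST, while the range of PWT overlapped both. *KRT8*, a type II keratin of simple epithelia, had at least 10 counts in 5 tumors and was highest in S2-11 (37.9 CPM). *KRT18*, its usual partner and its neighbor in the genome, had at most 9 counts in any tumor and 0 in S2-11, and was named after its values were seen. *KRT19*, a keratin of ducts and hair follicles, had at least 10 counts in S1-02, S1-04 and S1-05, at 4.64 to 10.4 CPM. *KRT20*, a keratin of gut and bladder lining and of Merkel cells, had at most 8 counts. The mucosal and corneal class was near 0, and *KRT12*, the keratin of the cornea, reached 10 counts only in S2-08 (12 counts, 6.78 CPM).

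*KRT25*, *KRT24* and *KRT222* had counts in many tumors without skin keratins. These are neighbors, in this order, at the end of the type I keratin cluster in the RefSeq annotation (assembly UU_Cfam_GSD_1.0, used only for gene order, since the files use another assembly). *KRT25* had at least 10 counts in 12 tumors, and its highest level, 82.3 CPM, was in S1-09, where *KRT71*, *KRT75* and *KRT33A* had no count. The next highest were S2-03 (69.4 CPM) and S2-11 (67.5 CPM). *KRT25* is 1 of 4 type I inner sheath keratins, and in S2-11 the other 3 (*KRT26*, *KRT27* and *KRT28*) had at most 1 count each. *KRT24* had at least 10 counts in 10 tumors and was highest in S1-05 (141 CPM), S2-08 (84.7 CPM) and S2-04 (68.9 CPM). In FS it was at most 6.88 CPM. *KRT222* had at least 10 counts in 8 tumors and at most 29.1 CPM. *KRT80* and *KRT7* are likewise neighbors, at the edge of the type II cluster, but their order of tumors differed: S1-09 had 227 CPM of *KRT7* and 0 counts of *KRT80*, and S1-12 had 37.4 CPM of *KRT80* and 0 counts of *KRT7*. Whether reads were counted by strand is not given in the sources used here, so counts from overlapping genes on the other strand cannot be told apart from these.

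**Figure D3:**
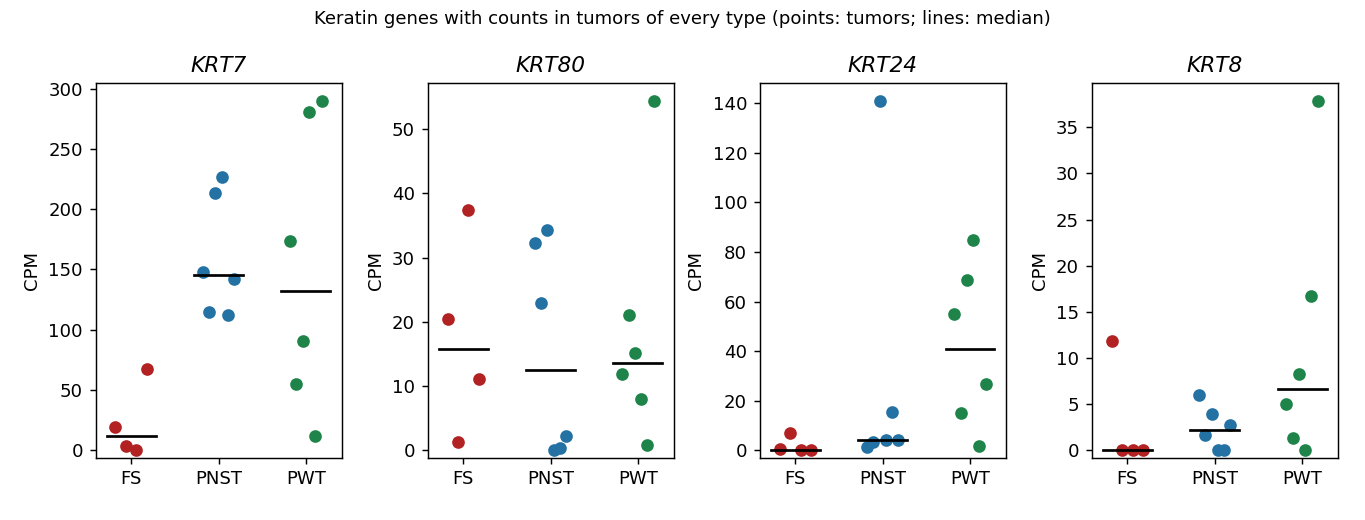
Levels (CPM) of *KRT7*, *KRT80*, *KRT24* and *KRT8* by molecular identity; each point is a tumor and each line the median of 4 FS, 6 PNST or 6 PWT. *KRT7* is at most 67.4 CPM in FS and at least 112 CPM in PNST, while the other genes overlap between types.

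Each tumor type was compared with the mean of the other types across all 15408 genes that had at least 10 counts in at least 4 tumors, 36 of them keratin genes. A gene was called a DEG at an edgeR adjusted p under 0.05 and a change of more than 1 on the log2 scale. Tumor type called few keratin genes. *KRT7* was lower in FS, with a log2 fold change of -2.91 (SE 0.79, adjusted p = 0.0221), and was the only DEG among the 59 keratin genes for FS, where 10.8% of all genes tested were called in either direction and 4.1% were called lower. It was not a DEG when the tumors were grouped by histological diagnosis (-1.08, adjusted p = 0.565), nor without S1-02 (-2.87, edgeR adjusted p = 0.0519) or S1-11 (-2.59, edgeR adjusted p = 0.0684), where the fold stayed near its size with all tumors. Without S2-03, *KRT77* was a DEG for FS as well, at a higher level, which made 2. For PNST, 0 keratin genes were called (1.1% of all genes), 1 had an unadjusted edgeR p under 0.05 (2930 of all 15408 genes), and DESeq2 called 0. For PWT, 0 were called (5.58% of all genes) and DESeq2 called 0. An unadjusted edgeR p under 0.05 was found for 2, *KRT7* and *KRT24*, and for 4039 of all 15408 genes. *KRT5*, with high and absent tumors in every type (2 of 4 FS, 2 of 6 PNST and 1 of 6 PWT), had a log2 fold change of 0.61 for FS (SE 1.71, adjusted p = 0.863). The standard error is wide enough that a severalfold difference between types would not have been seen. With the S1 or S2 prefix as a term, the median log2 fold change of the tested keratin genes turned from 0.60 to -0.56 for FS, from 0.60 to -0.62 for PNST and from -1.02 to 1.22 for PWT, so no direction is given for the family. In the other lists, *GRHL3*, a transcription factor of the epidermal barrier, was lower in FS, and *COL1A1* and *COL3A1* were higher there. In PWT, *CASP14* (-1.23, edgeR adjusted p = 0.0262), *COL1A1* (-2.02, edgeR adjusted p = 0.0136) and *COL1A2* (-1.20, edgeR adjusted p = 0.0468) were lower, as were 346 of all 15408 genes. Over all genes, 10 were called lower in PWT with the prefix as a term and 0 with histology groups. The PWT calls therefore depend on the grouping.

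Skin differs between the lower forelimb and the trunk, so the 4 tumors from below the elbow (S1-12, S2-04, S2-07 and S2-11) were compared with the other 12. No keratin gene was called, while 1 gene of 15408 was (0.00649%). Among the keratin genes, only *KRT38* had an unadjusted edgeR p under 0.05, as had 1194 of all genes. DESeq2 called 0 keratin genes, but gave an adjusted p to only 10 of the 59. Of these 4 tumors only S1-12 carried *KRT5*, at 175 CPM.

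More keratin genes were called along tumor size than by type or site, but the rules differ. Calls by type or site also needed a change of more than 1 on the log2 scale, and calls along size had no threshold on the slope. The 5 tumors with *KRT5* measured 1.3 to 2.5 cm in their largest dimension, and the other 11 measured 2.3 to 20 cm. Of the 6 tumors up to 2.5 cm, the only tumor without *KRT5* was S2-07, the interdigital PNST of 2.3 cm. Across all 16 tumors, 26 of the 59 keratin genes fell with each doubling of the largest dimension (edgeR adjusted p under 0.05) and 0 rose, while 0.668% of all genes tested were called lower and 0.0909% higher. These 26 are not independent of one another, since they rest on the same few tumors. Only 36 keratin genes passed the filter on low counts, and most of them passed it through these tumors. Their shared direction is therefore no separate evidence from each gene. With no filter, 32 of the 59 fell and 0.744% of all genes were called lower.

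By class, 3 of 3 basal keratins, 3 of 6 suprabasal, 1 of 4 of the footpad and activated group, 5 of 10 inner sheath and companion and 13 of 17 hair shaft keratins fell with size, together with *KRT89*, which was in no class. The called inner sheath and companion genes were *KRT71*, *KRT73*, *KRT74*, *KRT75* and *KRT79*. The called hair shaft genes were *KRT31*, *KRT32*, *KRT33A*, *KRT33B*, *KRT34*, *KRT35*, *KRT37*, *KRT39*, *KRT81*, *KRT82*, *KRT83*, *KRT85* and *KRT86*. The slope per doubling was -4.71 for *KRT5* (SE 0.74, adjusted p = 0.00216), -3.61 for *KRT14* (SE 0.53) and -3.85 for *KRT15* (SE 0.57). In the suprabasal class, the slopes were -4.77 for *KRT77* (SE 0.87), -4.14 for *KRT1* (SE 0.65) and -1.65 for *KRT10* (SE 0.32). Of these, *KRT10* is the gene that also had counts in each tumor without *KRT5*. *KRT17* was the member of the activated group that fell, with a slope of -3.85 (SE 0.60). Of the hair genes, *KRT33A* had a slope of -4.16 (SE 0.66), *KRT75* of -3.98 (SE 0.52) and *KRT71* of -3.67 (SE 0.49), and *KRT39* had the shallowest called slope at -1.46 (SE 0.33, adjusted p = 0.043). The fitted slopes of genes at 0 in most tumors depend on the small count added in the fit and are not bounds. Of the 10 keratin genes tested and not called, *KRT6A* (-2.16, adjusted p = 0.0634) and *KRT38* (-2.56, adjusted p = 0.0712) came nearest. *KRT25* (-0.44), *KRT24* (-0.47), *KRT80* (-0.24), *KRT8* (0.33) and *KRT7* (0.02, SE 0.42) had slopes within 1 SE of 0. Among genes that are not keratins, 15 of 42 epidermal genes, such as *FLG* (-4.36, SE 0.63) and *DSG1* (-4.29, SE 0.76), and 4 of 16 hair follicle genes, such as *TCHH* (-3.18, SE 0.50), also fell. The other epidermal genes called were *AQP3*, *CALML5*, *COL17A1*, *DSC1*, *GJB6*, *IVL*, *KLK7*, *KRTDAP*, *LORICRIN*, *OVOL1*, *SFN*, *SPINK5* and *TRIM29*, and the other hair follicle genes were *DSG4*, *PADI3* and *VSIG8*. None was called among the 7 of 17 glandular, 1 of 6 sebaceous, 1 of 8 melanocyte and 5 of 5 mesenchymal genes that passed the filter and were tested.

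**Figure D4:**
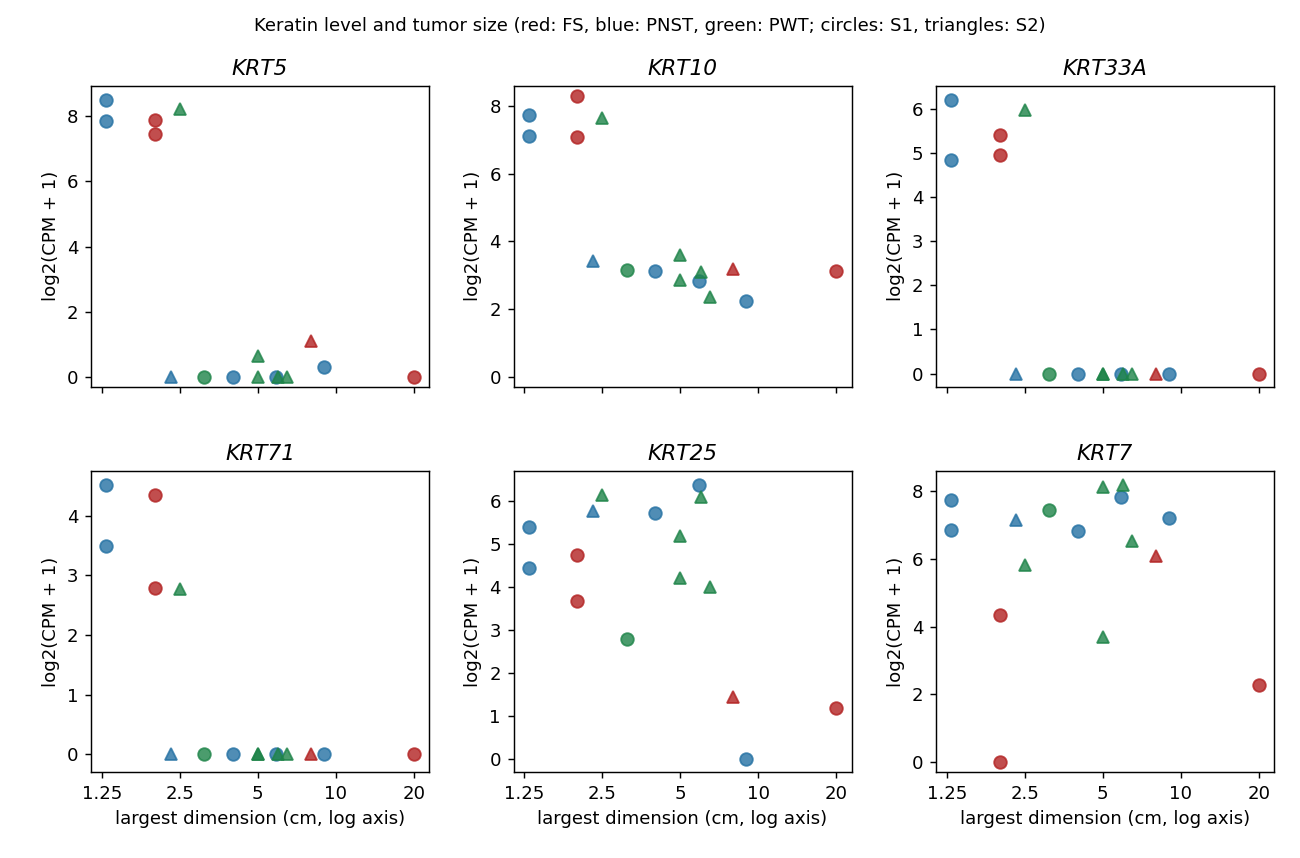
Level of 6 keratin genes, as log2(CPM + 1), against the largest dimension of the tumor (cm, log axis); colors give the molecular identity, circles S1 tumors and triangles S2 tumors. *KRT5*, *KRT10*, *KRT33A* and *KRT71* are high in the 5 tumors of 1.3 to 2.5 cm named in the text, while *KRT25* reaches 67.5 CPM in a tumor of 6 cm and *KRT7* reaches 148 CPM in S1-03, a tumor of 9 cm.

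**Figure D5:**
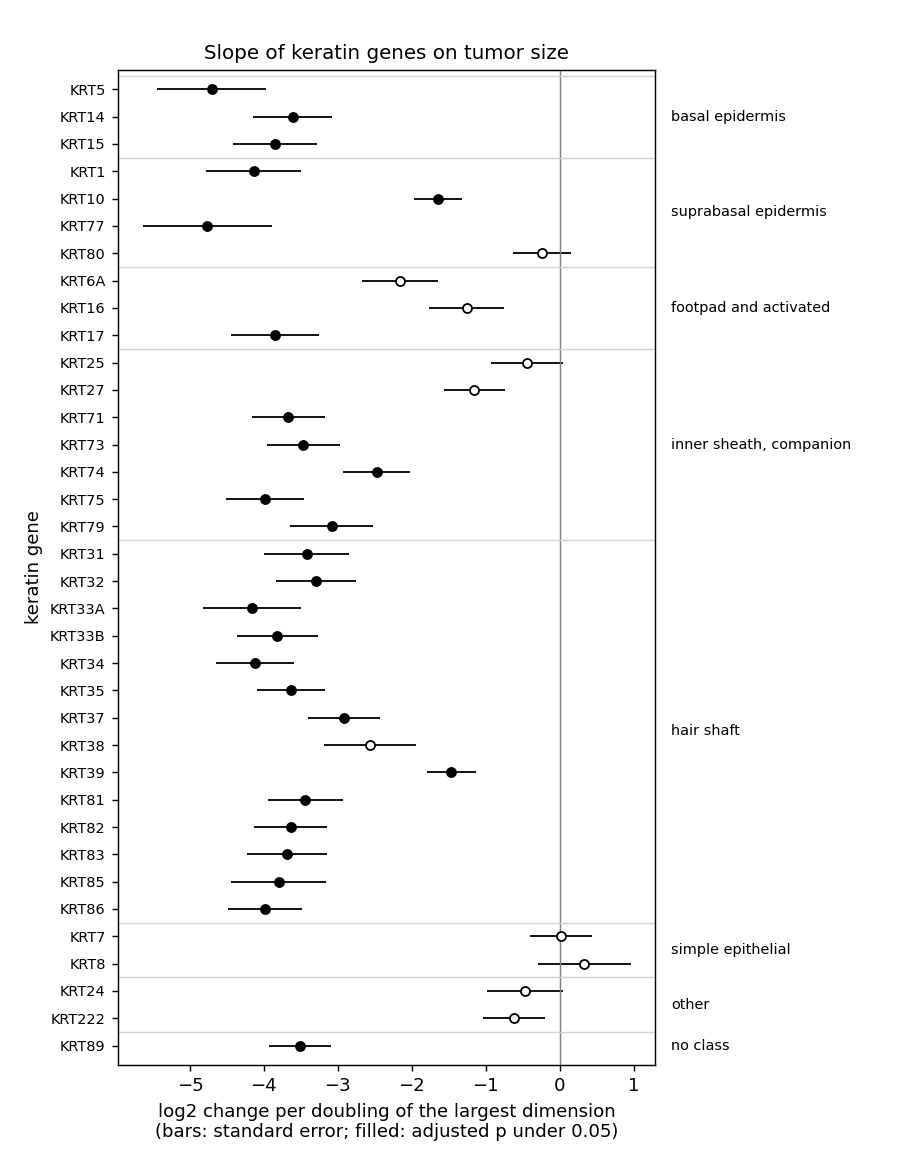
Change of each of the 36 tested keratin genes on the log2 scale per doubling of the largest dimension, with the standard error as a bar; filled points have an edgeR adjusted p under 0.05. The 26 filled points are all below 0 and lie in the epidermal and hair classes apart from *KRT89*, and the simple epithelial genes *KRT7* and *KRT8* lie near 0.

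The relation with size depends on how size was read and on few tumors. The labels of 6 S2 tumors give a second, mostly larger, size at processing, at which S2-03 measured 6.5 cm in place of 2.5 cm. With these sizes no gene of the 15408 was called. Of the 36 tested keratin genes, 28 had an unadjusted edgeR p under 0.05, all with lower levels at larger sizes, as had 1081 of all genes in either direction. Most of these 36 passed the filter through the tumors with *KRT5*, so their shared direction is no separate evidence. Within the 9 S1 tumors no gene was called either. All 24 keratin genes tested there had slopes below 0, and 18 had an unadjusted edgeR p under 0.05, as had 662 of all 14371 genes. Most of these 24 passed the filter through the 4 S1 tumors with *KRT5*, which are also the smallest S1 tumors. A slope below 0 was thus largely set by the filter and is no separate evidence. Within the 7 S2 tumors, of which only S2-03 carries skin keratins, 1 of 6 keratin genes tested had such a p, as had 387 of all 11874 genes. Summing S1-04 and S1-05 to a single sample left 16 keratin genes called of 25 tested, while 50 of all 15482 genes were called. Leaving out S1-02, S1-04, S1-05 or S2-03 left 16, 16, 15 and 17, since fewer keratin genes then had 10 counts in 4 tumors. Of all genes, 58 of 15020, 55 of 14983, 48 of 15218 and 63 of 15039 were called in these fits. Whether more skin lay in the sections of small tumors was not tested, since no measure of tissue area was used here.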

How the data were processed

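RNA from sections of 16 formalin-fixed, paraffin-embedded canine tumors was depleted of ribosomal RNA and sequenced on the Ion Proton. The authors aligned reads with STAR2 to ROS-canfam-01 and deposited raw counts per gene from htseq-count (HTSeq per the labels); the strand setting is not given in the sources used here. Rows that name no gene (reads outside genes, ambiguous or with several alignments) held 69.4% to 77.1% of the listed reads and were left out. Runs of a tumor were summed. Levels are CPM on the total of gene counts, without TMM. Single counts and count sums carry exact Poisson and count ratios exact binomial 95% intervals, which cover counting error only. Replicates are tumors of different dogs as far as the labels say, apart from S1-04 and S1-05.

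Tests used edgeR 4.0.16 (R 4.3.3): quasi-likelihood F-tests, TMM scaling, a filter of 10 or more counts in 4 or more tumors, and Benjamini-Hochberg adjustment over all genes tested. For a type, the mean of its tumors was set against the mean of the other type means. Size was the log2 of the largest dimension in the label, first measurement, and calls along it had no fold threshold. The fits were tested on simulated data. Alternatives were RLE factors, DESeq2 1.42.0, no filter, the prefix or the type as a term, histology groups, S1-04 and S1-05 summed, and leaving out each tumor. The sizes at processing, the fits within S1 and S2 and the fit without S1-11 and S2-07 were added after seeing the data. The keratin genes, their classes and the other lists were chosen with earlier results of these data known. The rule was to name the 4 members of each class with the highest mean level, every gene called, members with 10 counts in a single tumor, and the 3 highest genes of each other list. Not every gene under this rule is named: left out were *ESRP2*, *KRT23*, *KRT42*, and members of the mucosal and unclassed groups. Genes named beyond this rule were chosen after their values were seen. Correlations between classes over tumors were planned but not computed, since the tumors fell into separate clusters with 5 tumors in the smaller.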

Additional observations from a re-analysis of the deposited data

Results flagged for a closer look

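In 48 groups examined (the summed CPM of 9 keratin classes and the CPM of 7 genes, in each of FS, PNST and PWT), the highest or lowest tumor stood apart from the rest of its type in 12, by the ratio of its gap to the group's range (Dixon's 95% value). Chance gives about 1 in 20 groups if levels are normally distributed. Many of these levels are skewed and at or near 0, so that rate need not hold here, and the items are not independent. S2-03 accounted for 7 of the 12 among PWT. Its sums were 439 CPM for the basal class (next highest 1.13), 422 for the suprabasal class (next 62.7), 102 for the footpad and activated group (next 2.39), 344 for hair shaft keratins (next 5.51) and 9.40 for members in no class (next 1.13), and it had 199 CPM of *KRT10* (next 11.2) and 23.3 of *KRT16* (next 0.798). S1-05 stood apart among PNST with 141 CPM of *KRT24* (next 15.6), 179 for the other keratins, a group that includes *KRT24* (next 37.6), and 6.47 for mucosal and corneal keratins (next 3.05, and 10 counts in S1-05). Among FS, S1-02 had 11.9 CPM of *KRT8*, which had no count in the other 3, and S1-11 had 6.88 CPM of *KRT24* (next 0.359).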

How the results depend on the processing

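No paired analysis was possible because replicate numbers here are only names given in accession order. The number of keratin genes called lower with size was 26. It was 26 with RLE factors, 25 with DESeq2, 32 with no filter, 25 with the prefix and 27 with the type as a term, and 27 without S1-11 and S2-07. It moved to 16 with S1-04 and S1-05 summed, to 0 with sizes at processing, and to 0 within S1 and 0 within S2. Leaving out each tumor gave 15 to 28. Over the 26 genes and the alternatives in which each was tested, 534 of 592 estimates kept the call, 58 lost it and 0 changed sign. Most of these genes passed the filter through the tumors with *KRT5*, which are small, and most alternatives reuse these tumors. The kept sign was thus largely set in advance and is no separate evidence. Alternatives in which a gene failed the filter gave no estimate and are not in the 592. *KRT31*, *KRT35*, *KRT71* and *KRT85*, for example, were tested in 19 of 26 alternatives. The missing ones left out or merged tumors with *KRT5* or split the tumors by prefix, so these numbers do not cover the loss of those tumors for such genes. For FS, 1 keratin gene was called. The number was 3 with DESeq2 and 3 with no filter (*KRT7*, *KRT20* and *KRT24*, all lower), 0 with histology groups, and 0 to 2 when each tumor was left out, with *KRT7* at a log2 fold change of -4.04 to -2.59 when each tumor was left out and -1.08 with histology groups, and an adjusted p of 0.000377 to 0.565 over all alternatives. The number for PWT was 0, and 0 to 1 when each tumor was left out (1 gene each without S1-02, S2-06 or S1-05: *KRT8*, *KRT7* and *KRT24*). PNST and forelimb gave 0 in every alternative, though DESeq2 gave only 10 keratin genes an adjusted p for forelimb. Keratin genes found in at least 1 tumor numbered 45, with 52 at 3 counts, 46 at 5 CPM and 34 in thinned counts. Depth limits S1-12 most, where 3 counts are 5.91 CPM. Correlations between classes, and their other pseudocount, scaling and left-out tumors, were not run.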
